A study of Mus musculus with 8 samples.

Results

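CCR4-NOT is a deadenylase complex that removes poly(A) tails from mRNAs, and eIF4A2 is a reported partner of it. The transcripts of 10 of its subunits were followed in RIP-seq of Flag-tagged eIF4A2 in mouse ESCs: *Cnot1*, *Cnot2*, *Cnot3*, *Cnot6*, *Cnot6l*, *Cnot7*, *Cnot8*, *Cnot9*, *Cnot10*, and *Cnot11*. They were taken by name, as every gene of the count table whose identifier maps to a symbol of this list, which gave 10 of 52550 genes. The values below describe the mRNAs that encode the subunits, not the subunit proteins or the mRNAs on which the complex acts.

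In the complex, CNOT1 is the scaffold that holds separate modules, and the catalytic module pairs an EEP-type deadenylase (CNOT6 or CNOT6L) with a DEDD-type deadenylase (CNOT7 or CNOT8). Adaptor proteins such as TNRC6, TOB, and Nanos bring the complex to particular mRNAs, where shortening of the poly(A) tail lowers translation and leads to decapping and decay. In ESCs, subunits of the complex are known to be needed for self-renewal.

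In RIP-seq, an antibody pulls down a tagged protein with the RNA bound to it, and this RNA is sequenced next to input RNA that was not pulled down. All cells were *Eif4a2* KO ESCs in ES-DMEM-2i, medium with the GSK3 inhibitor CHIR99021 (1.5 µM), the MEK inhibitor PD0325901 (0.5 µM), and LIF (10 ng/ml). The RIP used 5 µg of anti-FLAG M2 antibody for 3 h. The QuantSeq kit reads a tag near the poly(A) tail, about 1 per transcript irrespective of its length, and levels of different genes are therefore compared per tag.

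There were 4 groups of 2 libraries. Input EV and RIP EV came from *Eif4a2* KO cells with the empty vector (EV) and thus no tagged protein. Input Eif4a2flag and RIP Eif4a2flag came from *Eif4a2* KO cells that re-expressed Flag-tagged *Eif4a2* from a piggyBac transgene, the full-length isoform as the study describes it, and their replicates were a pair of clones. The labels of RIP Eif4a2flag replicate 2 name Eif4a3 as its sample type but Eif4a2flag in its title and genotype, and it was grouped by its title. Nothing in the sources used here says that the EV replicates were separate cultures, so p-values measure only the spread between these samples, which may be technical. The targeted gene *Eif4a2* lay at 53.8 and 94.2 CPM (counts scaled to the gene reads of a library) in EV inputs and at 86.8 and 69.1 CPM in Eif4a2flag inputs. A tag near the poly(A) tail need not lie in the deleted part of the gene, so these levels do not check the knockout.

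Gene reads came to 7269765 and 3204369 in input EV, 4620862 and 6225787 in input Eif4a2flag, 2044853 and 3345151 in RIP EV, and 11206420 and 9976801 in RIP Eif4a2flag (replicates 1 and 2 in this order throughout). The RIP EV libraries stood apart. Reads outside annotated genes made up 45.8% and 29.7% of their reads, against 3.30% and 4.13% in RIP Eif4a2flag and 8.58% to 17.6% in the inputs. Their replicates also differed most, with a common biological coefficient of variation of 171%, against 30.1% in input EV, 28.1% in input Eif4a2flag, and 23.1% in RIP Eif4a2flag. The tests that use RIP EV were therefore repeated without each of its libraries.

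The 7 markers of naïve ESCs (*Pou5f1*, *Sox2*, *Nanog*, *Klf4*, *Esrrb*, *Zfp42*, and *Tfcp2l1*) summed to 1967, 1779, 2391, and 1942 CPM in the inputs, 957 and 1505 CPM in EV RIPs, and 2229 and 2589 CPM in Eif4a2flag RIPs. *Tfcp2l1* was the most abundant of them in 6 libraries, *Sox2* in RIP EV replicate 1 (362 CPM), and *Klf4* in RIP Eif4a2flag replicate 2 (745 CPM). *Pou5f1* was the least abundant of them in the inputs, at 19.7 and 9.05 CPM in EV and 15.8 and 5.78 CPM in Eif4a2flag inputs. It had 0 counts in both RIP EV libraries. Markers of other cell types had lower sums than the naïve markers in every library. Their highest sums were 2.32 CPM for 4 endoderm genes, 7.36 CPM for 3 trophoblast genes, 22.5 CPM for 3 mesoderm genes, 19.5 CPM for 2 neural genes, and 6.87 CPM for 4 fibroblast genes. In the libraries with these sums the most abundant were *Foxa2* (0.982 CPM), *Krt8* (6.93 CPM), *Eomes* (20.9 CPM), *Sox1* (19.0 CPM), and *Thy1* (5.93 CPM), and *Col3a1* was at 0 in every library. The mesoderm marker *Eomes* was above *Pou5f1* in input EV replicate 2 (20.9 CPM) and input Eif4a2flag replicate 2 (6.42 CPM), and below it in the other inputs. The part of the lower marker sum of RIP EV in the results below was not tested.

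All 10 members passed the filter, a CPM of at least 1 in each of the 4 inputs, as did 10754 genes in all. In the inputs, *Cnot2* had the highest mean level (86.1 ± 15.7 CPM, SD, n = 4), followed by *Cnot1* (78.2 ± 25.6), *Cnot10* (73.6 ± 6.09), *Cnot7* (72.4 ± 5.61), *Cnot9* (71.7 ± 16.2), *Cnot11* (64.3 ± 7.17), *Cnot6* (54.1 ± 16.1), *Cnot8* (54.1 ± 11.5), *Cnot3* (38.2 ± 13.0), and *Cnot6l* (16.9 ± 1.67). Each pair of neighbours in this order overlapped in range except the last, where the lowest input value of *Cnot3* (19.9 CPM) lay above the highest of *Cnot6l* (18.6 CPM). *Cnot6l* was thus the rarest member in the inputs. Together the members made up 544 and 634 CPM in EV inputs, 650 and 609 CPM in Eif4a2flag inputs, 1030 and 816 CPM in EV RIPs, and 918 and 821 CPM in Eif4a2flag RIPs, so that all 4 RIP libraries lay above all 4 inputs in the sum. *Cnot1* alone held 278 and 249 CPM of the Eif4a2flag RIPs. The members' median was 112 and 76.4 CPM in EV RIPs and 74.4 and 65.0 CPM in Eif4a2flag RIPs, against 57.2 to 67.6 CPM in the inputs. In CPM, 45.8% of all transcripts lay above their input in RIP Eif4a2flag and 14.6% in RIP EV.

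**Figure D1:**
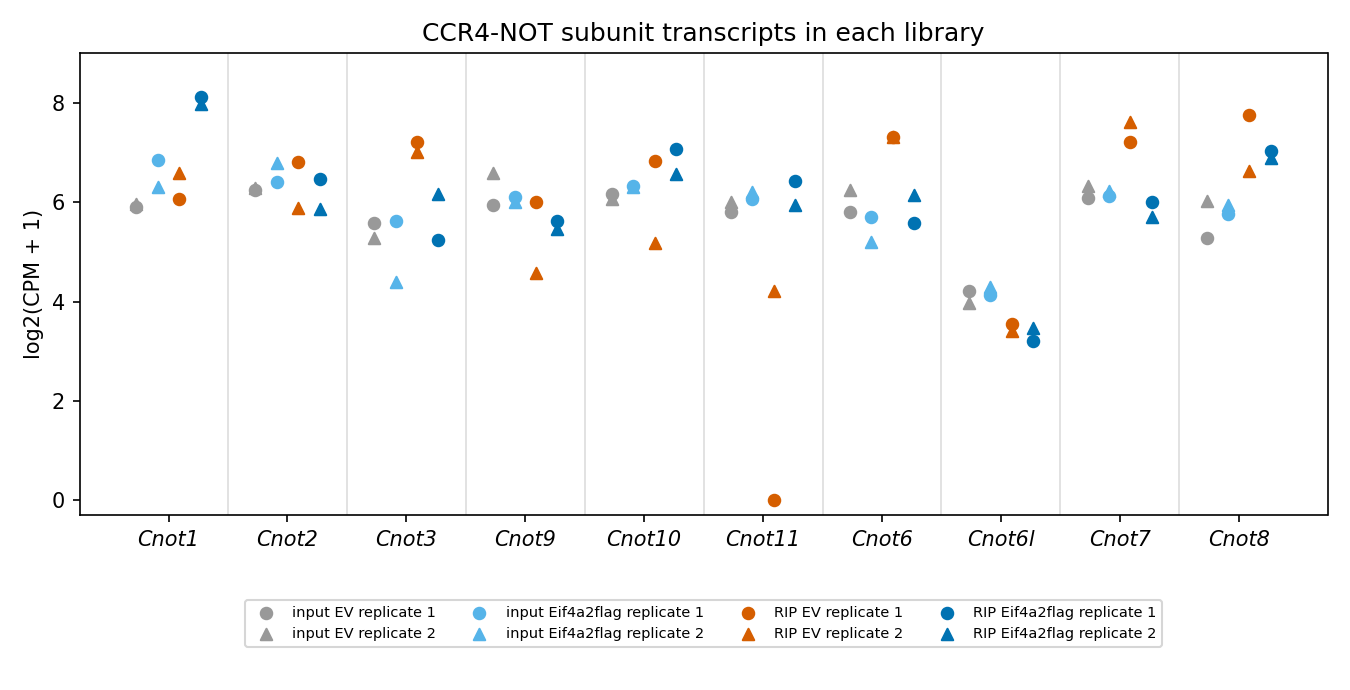
Levels of the 10 subunit transcripts in each of the 8 libraries, on a log2(CPM + 1) scale, with circles for replicate 1 and triangles for replicate 2. *Cnot1* was highest in RIP Eif4a2flag (278 and 249 CPM), *Cnot3*, *Cnot6*, and *Cnot7* were highest in RIP EV, and *Cnot11* had 0 counts in RIP EV replicate 1.

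*Cnot1* (mm10 chromosome 8, 95719451 to 95807464, minus strand) encodes the scaffold. Its level was 59.1 and 61.2 CPM in EV inputs, 114 and 77.9 CPM in Eif4a2flag inputs, 66.0 and 95.1 CPM in EV RIPs, and 278 and 249 CPM in Eif4a2flag RIPs. Both RIP Eif4a2flag libraries were higher than any other library. Relative to input Eif4a2flag the CPM ratio was 2.74, and the quasi-likelihood test of edgeR with Benjamini-Hochberg adjustment over all transcripts gave a log2 fold change of 1.14 (95% interval 0.47 to 1.80, adjusted p = 0.0303, n = 2 against 2), which was rank 953 of 10754 transcripts from the top. *Cnot1* therefore rose from input to RIP in the Eif4a2flag cells. The call was lost without input Eif4a2flag replicate 2 (log2 fold change 0.85, adjusted p = 0.0862), without RIP Eif4a2flag replicate 1 (1.09, 0.0881) or 2 (1.16, 0.0712), and when all 8 libraries shared their spread (1.14, 0.419), within a range of adjusted p from 0.00263 to 0.419 over the alternatives of the same edgeR test and of other tools. Over RIP EV the log2 fold change came to 1.47 (0.34 to 2.60) with an unadjusted p of 0.0226 and an adjusted p of 0.0967 by the same edgeR test, and it was 1.21 without RIP EV replicate 1 and 1.79 without replicate 2. RIP EV itself was above input EV for this gene, and the difference between the cell lines in the change from input to RIP was 0.74 (−0.49 to 1.96), with an adjusted p of 0.432 by the same edgeR test (0.53 without RIP EV replicate 1 and 1.10 without replicate 2). The rise relative to input was thus not shown to be larger in Eif4a2flag than in EV cells.

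The share of *Cnot1* among the tags of the 10 members needs no scaling between libraries. It was 10.9% and 9.65% in input EV, 17.6% and 12.8% in input Eif4a2flag, 6.41% and 11.6% in RIP EV, and 30.3% and 30.3% in RIP Eif4a2flag. The Wilson 95% intervals of RIP Eif4a2flag (29.4% to 31.1% and 29.3% to 31.3%) lay above that of input Eif4a2flag replicate 1 (16.3% to 19.0%), the highest of the other libraries. Reads had no molecular identifiers, so these intervals and the floor used further on reflect counting error alone, and an exact permutation test of 2 against 2 libraries cannot give a two-sided p below 0.333.

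*Cnot2* and *Cnot3* encode the NOT module, which binds the C-terminal part of CNOT1 and contacts RNA-bound adaptors. *Cnot2* (chromosome 10, 116485161 to 116581511, minus strand) had 74.6 and 76.8 CPM in EV inputs, 84.2 and 109 CPM in Eif4a2flag inputs, 111 and 57.7 CPM in EV RIPs, and 87.0 and 57.0 CPM in Eif4a2flag RIPs. The RIP groups spread across the range of the inputs and overlapped each other. *Cnot3* (chromosome 7, 3645268 to 3661109, plus strand) had 46.8 and 37.8 CPM in EV inputs, 48.3 and 19.9 CPM in Eif4a2flag inputs, 148 and 128 CPM in EV RIPs, and 36.7 and 70.5 CPM in Eif4a2flag RIPs. Both RIP EV libraries were higher than the other 6, which overlapped. RIP EV was 2.57 times RIP Eif4a2flag for *Cnot3*, but the log2 fold change of −1.58 had a wide interval (−3.23 to 0.063) and an adjusted p of 0.184 by the same edgeR test. Without RIP EV replicate 1 it was −1.50 and without replicate 2 it was −1.66. Relative to input Eif4a2flag, *Cnot2* gave −0.73 (−1.38 to −0.081) with an adjusted p of 0.1098 and *Cnot3* gave 0.34 (−0.68 to 1.37) with an adjusted p of 0.637 by the same edgeR test. The value of *Cnot3* in that comparison rested on single libraries: its sign turned without input Eif4a2flag replicate 2 (−0.20) or RIP Eif4a2flag replicate 2 (−0.26), and without input Eif4a2flag replicate 1 it passed the threshold (1.18, adjusted p = 0.0365, range over alternatives 0.0365 to 1).

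*Cnot9* (chromosome 1, 74506058 to 74530842, plus strand) encodes the CAF40 subunit, which binds tryptophans of TNRC6 proteins. It had 60.2 and 95.5 CPM in EV inputs, 68.2 and 62.8 CPM in Eif4a2flag inputs, 63.6 and 22.7 CPM in EV RIPs, and 48.5 and 42.8 CPM in Eif4a2flag RIPs. RIP Eif4a2flag lay below every input, and RIP EV held both a value like the inputs and the lowest value of all. The log2 fold change from input to RIP in Eif4a2flag cells was −0.83 (−1.41 to −0.24) with an adjusted p of 0.0553 by the same edgeR test, just outside the threshold, and it passed with DESeq2 (adjusted p = 0.0450, range over alternatives 0.0448 to 0.881), with DESeq2 size factors in edgeR (0.0497), and without input Eif4a2flag replicate 2 (0.0448).

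*Cnot10* and *Cnot11* encode the module at the N-terminal end of CNOT1. *Cnot10* (chromosome 9, 114585878 to 114640184, minus strand) had 71.1 and 66.2 CPM in EV inputs, 78.8 and 78.4 CPM in Eif4a2flag inputs, 112 and 35.0 CPM in EV RIPs, and 134 and 93.5 CPM in Eif4a2flag RIPs. RIP Eif4a2flag was above all inputs, while the RIP EV replicates lay on either side of them. *Cnot11* (chromosome 1, 39534992 to 39546889, plus strand) had 55.2 and 63.4 CPM in EV inputs, 66.2 and 72.4 CPM in Eif4a2flag inputs, 0 and 17.6 CPM in EV RIPs, and 85.5 and 60.5 CPM in Eif4a2flag RIPs. It was the one member with 0 counts in a library, RIP EV replicate 1, where a floor of 3 counts allows up to 1.47 CPM, and RIP EV replicate 2 held 59 counts. Pooled over replicates, RIP Eif4a2flag was 6.74 times RIP EV for *Cnot11*, but the fit gave an interval of −3.50 to 9.05 around a log2 fold change of 2.78 and an adjusted p of 0.548 by the same edgeR test. Without RIP EV replicate 1 the log2 fold change was 1.79. Without replicate 2 the only RIP EV library left had 0 counts. Relative to input Eif4a2flag the log2 fold changes were 0.22 for *Cnot10* (adjusted p = 0.609) and −0.24 for *Cnot11* (adjusted p = 0.581) by the same edgeR test, and that of *Cnot11* was 0.075 with library size alone.

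*Cnot6* and *Cnot6l* encode the alternative EEP-type deadenylases. *Cnot6* (chromosome 11, 49671503 to 49712723, minus strand) had 54.9 and 74.9 CPM in EV inputs, 50.9 and 35.8 CPM in Eif4a2flag inputs, 158 and 158 CPM in EV RIPs, and 47.1 and 69.5 CPM in Eif4a2flag RIPs. Both RIP EV libraries were far above the other 6, which overlapped. RIP EV was 2.71 times RIP Eif4a2flag, and the log2 fold change of RIP Eif4a2flag over RIP EV was −1.67 (−3.01 to −0.32) with an unadjusted p of 0.0268 and an adjusted p of 0.108 by the same edgeR test. It was −1.69 without RIP EV replicate 1 and −1.64 without replicate 2. Relative to input Eif4a2flag it was 0.12 (adjusted p = 0.822 by the same edgeR test), a sign that turned without input Eif4a2flag replicate 2 (−0.15) or RIP Eif4a2flag replicate 2 (−0.24).

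*Cnot6l* (chromosome 5, 96070333 to 96164171, minus strand) was low in the RIPs instead. It had 17.5 and 14.7 CPM in EV inputs, 16.7 and 18.6 CPM in Eif4a2flag inputs, 10.8 and 9.57 CPM in EV RIPs, and 8.30 and 10.0 CPM in Eif4a2flag RIPs. All 4 RIP libraries were below all 4 inputs, and the RIP groups overlapped. Input Eif4a2flag was 1.93 times RIP Eif4a2flag, and *Cnot6l* fell from input to RIP by 1.25 on the log2 scale (interval −2.01 to −0.48, adjusted p = 0.0355 by the same edgeR test), the largest fall among the members. The call was lost with library size alone (−0.95, adjusted p = 0.0750), without input Eif4a2flag replicate 2 (−1.22, 0.0653), without RIP Eif4a2flag replicate 1 (−1.08, 0.201) or 2 (−1.44, 0.101), and with a spread shared by all 8 libraries (−1.24, 0.674), within a range of adjusted p from 0.0212 to 0.674 over alternatives. The difference between the cell lines in this change was −0.57 (−2.67 to 1.54) with an adjusted p of 0.788 by the same edgeR test (−0.44 without RIP EV replicate 1 and −0.56 without replicate 2), so a fall particular to the Eif4a2flag cells was not shown. With 22 and 32 counts in RIP EV and 47 to 127 counts elsewhere, *Cnot6l* rested on the fewest tags of all members in every library except RIP EV replicate 1, where *Cnot11* had 0. The share of *Cnot6l* among *Cnot6* and *Cnot6l* tags was 24.1% and 16.4% in input EV, 24.7% and 34.2% in input Eif4a2flag, 6.38% and 5.69% in RIP EV, and 15.0% and 12.6% in RIP Eif4a2flag, which put every RIP library below every input.

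*Cnot7* and *Cnot8* encode the alternative DEDD-type deadenylases. *Cnot7* (chromosome 8, 40492540 to 40515847, minus strand) had 67.0 and 79.6 CPM in EV inputs, 69.0 and 73.9 CPM in Eif4a2flag inputs, 147 and 195 CPM in EV RIPs, and 63.3 and 50.8 CPM in Eif4a2flag RIPs. RIP EV was above all other libraries and RIP Eif4a2flag below all of them. The change from input to RIP in Eif4a2flag cells did not pass by itself (−0.63, interval −1.22 to −0.051, adjusted p = 0.1199 by the same edgeR test, and −0.33 with library size alone), and that in EV cells was not tested. The difference between these changes, Eif4a2flag minus EV, was −1.84 (−3.01 to −0.67) with an adjusted p of 0.0398 by the same edgeR test, fitted on all 8 libraries. Without RIP EV replicate 1 it was −2.01 (adjusted p = 0.00263) and without replicate 2 it was −1.55 (0.00775), where the lone RIP EV library is assumed to vary like the other groups. The call was lost without input EV replicate 1 (−1.80, 0.132) or 2 (−1.89, 0.118), without input Eif4a2flag replicate 1 (−1.87, 0.114) or 2 (−1.82, 0.116), and without RIP Eif4a2flag replicate 1 (−1.88, 0.137) or 2 (−1.60, 0.193). It was also lost with library size alone (−1.55, 0.0858), without a filter on low counts (−1.68, 0.318), and with limma voom (−1.85, 0.276). With the replicate number as a block in edgeR it was lost as well (−1.84, 0.0747). The adjusted p ranged from 4.75e-06 (DESeq2) to 0.318 over alternatives. The RIP levels alone gave −1.82 (−3.10 to −0.54, unadjusted p = 0.0170, adjusted p = 0.0786 by the same edgeR test), with RIP EV at 3.00 times RIP Eif4a2flag, and this value was −2.03 without RIP EV replicate 1 and −1.57 without replicate 2.

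*Cnot8* (chromosome 11, 58104153 to 58118594, plus strand) had 38.1 and 64.0 CPM in EV inputs, 53.5 and 60.7 CPM in Eif4a2flag inputs, 214 and 97.2 CPM in EV RIPs, and 130 and 118 CPM in Eif4a2flag RIPs. All 4 RIP libraries were above all 4 inputs, and the RIP groups overlapped. RIP Eif4a2flag was 2.17 times its input, with a log2 fold change of 0.81 (0.23 to 1.38) and an adjusted p of 0.0568 by the same edgeR test, which passed the threshold with library size alone (1.11, adjusted p = 0.0165, range over alternatives 0.0165 to 0.790). The difference between the cell lines was −0.82 with an adjusted p of 0.543 by the same edgeR test. It rested on single RIP EV libraries, with −0.10 without replicate 1 and −1.20 without replicate 2. In these fits the lone RIP EV library is assumed to vary like the other groups, so no call is read from them. *Cnot8* took 36.3% and 44.6% of the *Cnot7* and *Cnot8* tags in input EV, 43.6% and 45.1% in input Eif4a2flag, 59.3% and 33.2% in RIP EV, and 67.2% and 69.8% in RIP Eif4a2flag. *Cnot7* was thus the more abundant of the pair in every input, *Cnot8* was the more abundant in both RIP Eif4a2flag libraries, and the RIP EV libraries were split. Tags of all 4 deadenylase subunits made up 51.4% and 56.4% of the members' tags in RIP EV, against 27.0% and 30.2% in RIP Eif4a2flag and 29.2% to 36.8% in the inputs.

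**Figure D2:**
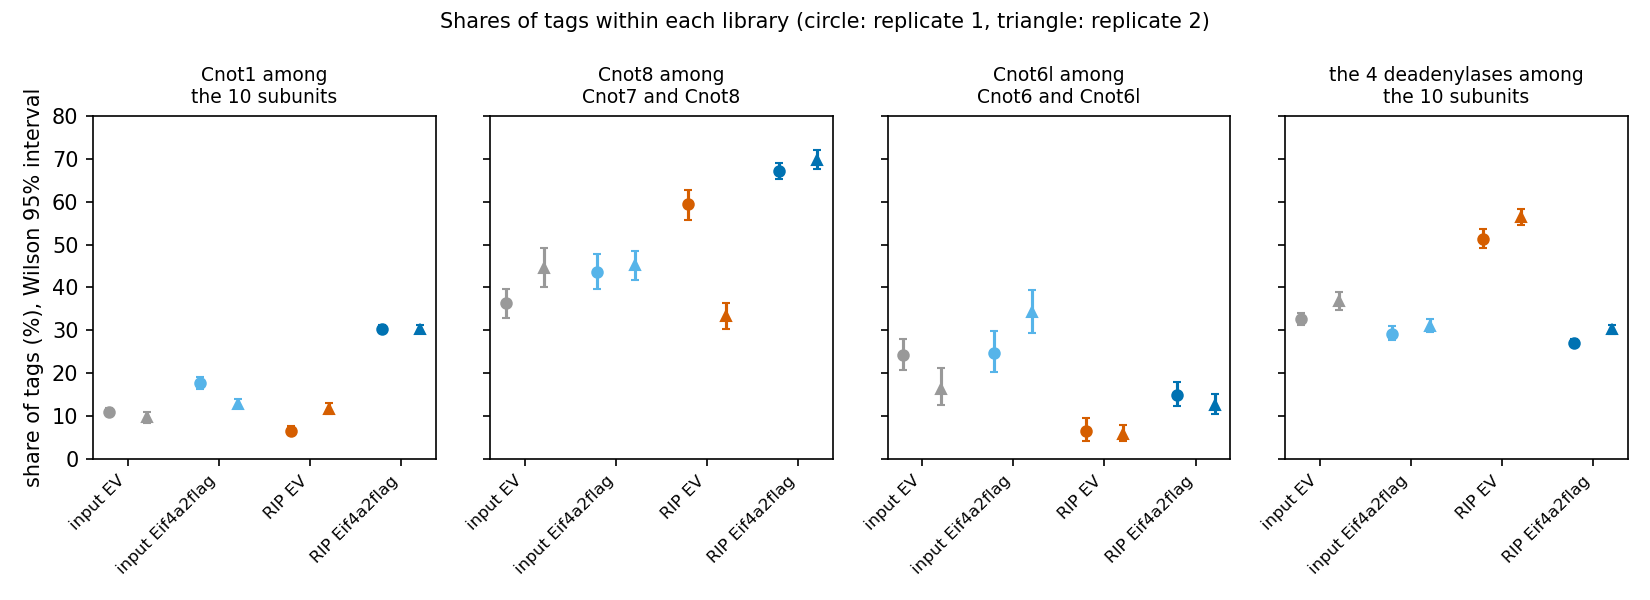
Shares of tags within each library, in percent with Wilson 95% intervals, for *Cnot1* among the 10 subunits, *Cnot8* among *Cnot7* and *Cnot8*, *Cnot6l* among *Cnot6* and *Cnot6l*, and the 4 deadenylases among the 10 subunits. *Cnot1* made up 30.3% in both RIP Eif4a2flag libraries and at most 17.6% in any other, and the deadenylases reached 51.4% and 56.4% in RIP EV and at most 36.8% elsewhere.

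Recovery relative to abundance in the same cells was compared over all members as RIP Eif4a2flag against input Eif4a2flag. Of the 10 members, 1 rose (*Cnot1*) and 1 fell (*Cnot6l*) past an adjusted p of 0.05 in the edgeR test, beside 8.44% of all 10754 transcripts that rose (908) and 8.46% that fell (910). The members' share was near that background. With library size alone, 1933 transcripts rose and 567 fell, and the members past the threshold were *Cnot1* and *Cnot8*, so the calls of *Cnot6l* and *Cnot8* moved with the scaling. Over all transcripts, library size alone moved the median from 0.017 to 0.32 in this comparison, from 0.67 to 0.91 against RIP EV, and from 0.64 to 0.92 in the difference between the cell lines. The members' median was −0.057, with 5 above 0 and 5 below, and an unadjusted p under 0.05 was reached by 6 of them, against 34.1% of all transcripts. In CPM, RIP Eif4a2flag lay wholly above its input for *Cnot1*, *Cnot10*, and *Cnot8* (3 of 10, against 45.8% of all transcripts) and wholly below it for *Cnot9*, *Cnot6l*, and *Cnot7* (3 of 10, against 18.7%).

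**Figure D3:**
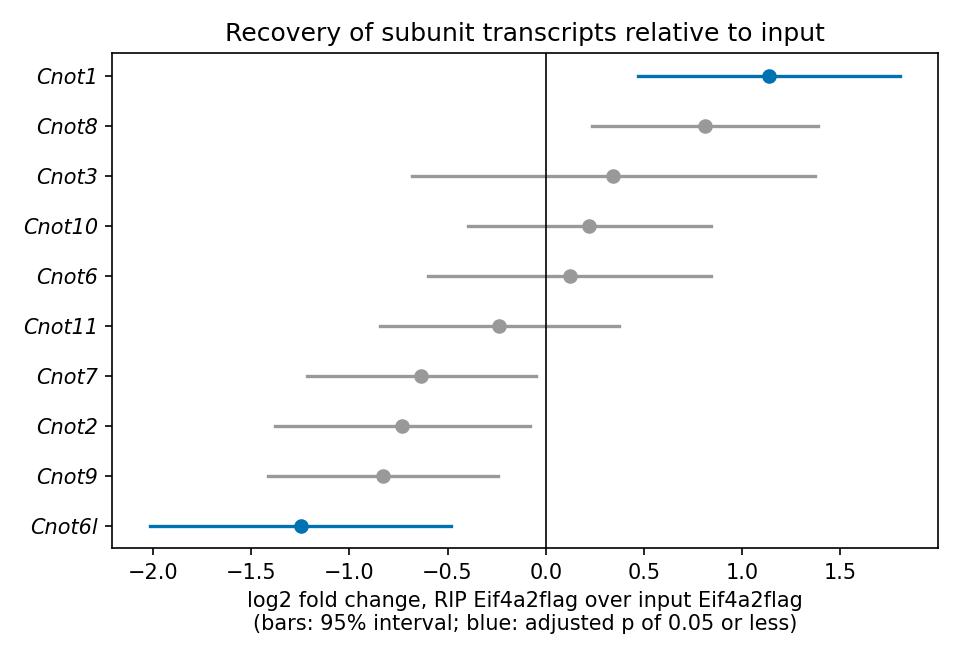
Log2 fold change of each subunit transcript in RIP Eif4a2flag over input Eif4a2flag, with 95% intervals from edgeR, sorted by value, with an adjusted p of 0.05 or less in blue. *Cnot1* (1.14) and *Cnot6l* (−1.25) lie at the ends and passed the threshold, the latter not with library size alone, where *Cnot8* passed instead.

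RIP Eif4a2flag against RIP EV asked which transcripts were recovered with the tagged protein beyond the background of the antibody. No member passed the threshold (0 of 10), as 0% of all transcripts did in the same edgeR test on these 4 libraries. An unadjusted p under 0.05 was reached by 3149 transcripts (29.3%) and by 3 members, *Cnot1* on the higher side (24% of all transcripts, 2578) and *Cnot6* and *Cnot7* on the lower side (5.31%, 571). DESeq2 called the same 3 members in the same directions (adjusted p = 0.0293, 0.0252, and 0.00616), beside 7.49% of all transcripts on the higher side and 4.86% on the lower side. Limma voom called 9 transcripts and no member. Over the alternatives of edgeR and the other tools the adjusted p ranged from 1.63e-04 to 1 for *Cnot1*, from 1.64e-04 to 1 for *Cnot6*, and from 1.77e-05 to 1 for *Cnot7*. With only replicate 2 of RIP EV kept, 6 members passed, beside 65.3% of all transcripts, and with only replicate 1 kept, 7 did, beside 77.6%. In CPM, RIP Eif4a2flag lay above RIP EV for *Cnot1* and *Cnot11* (2 of 10, against 51.9% of all transcripts) and below it for *Cnot3*, *Cnot6*, and *Cnot7* (3 of 10, against 12.1%). The members' median log2 fold change was −0.42, against 0.67 over all transcripts. Without RIP EV replicate 1 these were 0.074 and 0.66, and without replicate 2 they were −0.76 and 3.07.

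The RIP EV libraries, which hold what the antibody recovered without a Flag-tagged protein, were set beside input EV by CPM alone, with no test. RIP EV lay above input EV for *Cnot1*, *Cnot3*, *Cnot6*, *Cnot7*, and *Cnot8* (5 of 10, against 14.6% of all transcripts) and below it for *Cnot11* and *Cnot6l* (2 of 10, against 44.9%). At least 1 count in both RIP EV libraries was found for 9 of the 10 members, against 51.1% of all transcripts and 62.7% of the 4017 transcripts whose mean input level lay within the members' range. The members were thus mostly present in RIP EV, with the 45.8% and 29.7% of reads outside genes and the wide spread of these libraries beside it. Their part in the members' levels there was not tested.

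The test of the difference between the cell lines in the change from input to RIP placed 1 of 10 members, *Cnot7*, past the threshold on the lower side and 0 on the higher side. Of all transcripts, 2.1% (226) passed on the lower side and 19.2% (2068) on the higher side. This test shares a spread over all 4 groups, although that of RIP EV was much wider, so its p-values may be too small. Limma voom with group weights called 0 transcripts. Leaving out a RIP EV library raised the number of members past the threshold to 3 (without replicate 1, beside 47.7% of all transcripts) or 4 (without replicate 2, beside 66.4%), and leaving out any one of the other 6 libraries brought it to 0. Of these 6 fits, 5 called no transcript at all, and the one without input EV replicate 2 called 12.8%, so the loss was not particular to the members. The members' median was −0.69, against 0.64 over all transcripts, with 4 members above 0 and 6 below. It was −0.20 against 0.68 without RIP EV replicate 1, and −0.82 against 3.05 without replicate 2. Both comparisons with EV cells use the same RIP EV libraries, so their values are not separate evidence.

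Between the inputs, the edgeR test called no member (0 of 10) and no transcript (0%), while 796 transcripts (7.4%) and 0 members had an unadjusted p under 0.05, DESeq2 called 17 transcripts, and limma voom called 0. The members' log2 fold changes of input Eif4a2flag over input EV ran from −0.57 (*Cnot6*) to 0.68 (*Cnot1*, adjusted p = 0.681 by the same edgeR test), around a median of 0.15. Input Eif4a2flag lay above input EV in CPM for *Cnot1*, *Cnot2*, *Cnot10*, and *Cnot11* (4 of 10, against 19.8% of all transcripts) and below it for *Cnot6* (1 of 10, against 17.3%). A change in the level of a subunit transcript with re-expression of *Eif4a2* was thus not detected in these inputs, with 2 libraries per group. In bulk RNA, fewer cells that express a transcript and less of it per cell cannot be told apart.

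The members' profiles over the 8 libraries were not alike. Measured from their mean profile of log2(CPM + 1), each centred on its own mean, the root-mean-square difference ran from 0.372 for *Cnot2* to 2.01 for *Cnot11*. The 3 transcripts outside the list nearest to that mean profile were *Cdc34* (0.131, chromosome 10), *Pak2* (0.134, chromosome 16), and *Dad1* (0.137, chromosome 14), each nearer to it than any member. They were picked as the nearest of all transcripts that passed the filter, so this says little about the complex. *Cnot1* and *Cnot7* share chromosome 8, *Cnot9* and *Cnot11* chromosome 1, and *Cnot6* and *Cnot8* chromosome 11. The longest coding transcripts were those of *Cnot6l* (8564 bases) and *Cnot1* (8390 bases), which lay at opposite ends of the change from input to RIP Eif4a2flag, and the shortest was that of *Cnot8* (2099 bases), which lay next to *Cnot1*. Over 10088 transcripts with an annotated coding transcript, length and this change had a Spearman rho of 0.314, and over the 10 members it was −0.248, given as a description across genes.

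Some counts are uncertain because the strand setting of the counting is not given in the sources used here. Genes on the opposite strand overlap *Cnot1* (*4930513N10Rik*, 282 counts over all libraries), *Cnot2* (*5330438D12Rik*, 70 counts, and *Gm49344*, 0 counts), *Cnot3* (*Leng1*, 569 counts), *Cnot6* (*Gm12192*, 5 counts), *Cnot7* (*Zdhhc2*, 988 counts, and *Vps37a*, 1700 counts), and *Cnot9* (*Usp37*, 3496 counts). Without strand, tags of the members and of these genes cannot be told apart where they overlap. Processed pseudogenes share sequence with *Cnot1* (*Gm6158*, 99.8% identical over 903 bases), *Cnot3* (*Gm9207*, 98.8% over 1116 bases), and *Cnot8* (*Gm18860*, 97.8% over 760 bases), and had 1, 0, and 17 counts in all. These stretches end 956, 289, and 1009 bases before the end of the members' longest coding transcripts. Of the longest stretches shared with genes on the opposite strand, that of *Leng1* (385 bases) reaches the 3′ end of *Cnot3*, where QuantSeq tags lie, while those of *Zdhhc2*, *Usp37*, and *4930513N10Rik* end 1749, 3042, and 8257 bases before the ends of *Cnot7*, *Cnot9*, and *Cnot1*.

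The lists beside the complex held 46 genes of mRNA decay, of which 42 passed the filter and *Tnks1bp1*, *Btg1*, *Btg3*, and *Zfp36l2* did not. From input to RIP in Eif4a2flag cells, 5 of the 42 rose and 3 fell in the same edgeR test, near the 8.44% and 8.46% of all transcripts, around a median of 0.23. The accessory protein *Cnot4* did not pass (log2 fold change −0.30, adjusted p = 0.658). Of 8 other deadenylases, *Parn* (−1.23, adjusted p = 0.0210) and *Pde12* (−0.94, 0.0396), a mitochondrial enzyme, fell in the same edgeR test. *Parn* had 44.7 and 50.9 CPM in EV inputs, 32.9 and 42.6 CPM in Eif4a2flag inputs, 0 and 15.8 CPM in EV RIPs, and 18.7 and 20.9 CPM in Eif4a2flag RIPs, so that it was low in both RIPs. *Pan3*, a subunit of another deadenylase complex, had the highest value of that list (0.74, adjusted p = 0.0990), which passed with library size alone (0.0246, range over alternatives 0.0246 to 1).

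Of 16 adaptors that passed the filter, *Tnrc6c* and *Tnrc6a*, which link Argonaute proteins to CCR4-NOT, rose. *Tnrc6c* had 29.4 and 38.1 CPM in EV inputs, 48.9 and 40.8 CPM in Eif4a2flag inputs, 105 and 83.1 CPM in EV RIPs, and 315 and 292 CPM in Eif4a2flag RIPs. It was highest in RIP Eif4a2flag and next highest in RIP EV, and its log2 fold change over input of 2.45 (adjusted p = 0.00165 in the same edgeR test) was above that of each member. *Tnrc6a* rose by 1.04 (adjusted p = 0.0425 in the same edgeR test). *Zfp36*, the lowest of the list, had −1.45 (adjusted p = 0.0544 in the same edgeR test) and passed under some alternatives, DESeq2 among them (0.0368, range 0.0262 to 0.988).

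Of 12 decapping and decay genes, *Eif4enif1* (1.40, adjusted p = 0.0257), *Edc4* (1.17, 0.0178), and *Lsm14b* (1.10, 0.0272) rose and *Lsm14a* (−1.02, 0.0418) fell in the same edgeR test. *Edc4*, which encodes a scaffold of decapping, had 79.4 and 55.9 CPM in EV inputs, 73.8 and 67.9 CPM in Eif4a2flag inputs, 67.5 and 77.1 CPM in EV RIPs, and 199 and 196 CPM in Eif4a2flag RIPs, so that RIP Eif4a2flag alone stood above the rest. Among 5 genes of poly(A)-binding proteins and their partners none passed, with *Pabpc1*, the most abundant, at 0.84 (adjusted p = 0.155) and *Paip2b*, the lowest, at −0.42 (adjusted p = 0.339) in the same edgeR test. *Pabpc1* had 670 and 303 CPM in the Eif4a2flag inputs, and its value was 1.59 without the first of them (adjusted p = 0.00205) and 0.35 without the second (0.530). It also passed with library size alone (0.0436), without a filter on low counts (0.0430), and with limma voom (0.0471), over a range of 0.00205 to 0.622. All 8 calls in these lists were lost when all 8 libraries shared their spread (adjusted p from 0.113 for *Tnrc6c* to 1 for *Parn*), and each except that of *Tnrc6c* was also lost without at least 1 of the RIP Eif4a2flag libraries, with adjusted p up to 0.310 (*Tnrc6a* without replicate 2). *Pde12* (0.0595), *Tnrc6a* (0.0849), *Eif4enif1* (0.0566), and *Lsm14b* (0.0697) also lost it without input Eif4a2flag replicate 2, and *Lsm14a* (0.0836) without replicate 1. Library size alone ended the calls of *Pde12* (0.133) and *Lsm14a* (0.117). The replicate number as a block ended those of *Pde12*, *Tnrc6a*, and *Lsm14a*. Over all alternatives the adjusted p of the 8 ranged from 2.33e-12 to 1. Against RIP EV and between the inputs, 0 of the 42 passed in edgeR, with 12 and 2 at an unadjusted p under 0.05, against 29.3% and 7.4% of all transcripts. In the difference between the cell lines 5 of the 42 passed, all on the higher side (*Tob1*, *Tob2*, *Nanos1*, *Lsm14b*, and *Dcp1b*), each with 0 to 3 counts over both RIP EV libraries, against 19.2% of all transcripts on that side. Over all alternatives the log2 fold changes of these 5 were above 0, from 3.81 for *Dcp1b* to 13.5 for *Lsm14b*. All of them use these same few RIP EV counts, so the shared sign adds no support. The fits without RIP EV replicate 1 or 2 are among these alternatives. There the lone RIP EV library is assumed to vary like the other groups, so calls in those fits are not read here.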

How the data were processed

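Anti-Flag RIP and input RNA of mouse ESCs was measured in 8 QuantSeq libraries. The authors used bbduk for trimming, STAR (version 2.5.3a) for alignment to mm10, and HTSeq (version 0.11.2) for counting, and they deposited raw counts per gene without normalization. Which annotation release and strand setting they counted with is not given in the sources used here. Of 52550 gene identifiers, 52403 were named from GENCODE (GRCm38). The 5 summary lines of the counter stayed out of totals and tests. CPM were computed on gene reads.

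The 10754 transcripts that reached 1 CPM in each of the 4 inputs were tested with edgeR (version 4.0.16, R version 4.3.3; TMM factors, quasi-likelihood tests), with p-values adjusted by Benjamini-Hochberg over all of them and a threshold of 0.05. Only the 4 libraries compared entered a fit, because the spread of RIP EV was much wider, and all 8 entered the test of the difference between cell lines. That test shares a spread over groups whose coefficients of variation ran from 23.1% to 171%, so its p-values may be too small. Standard errors were taken as the absolute log2 fold change over the square root of F. Scripts were tested on simulated data with the same spread in every group, so the wide spread of RIP EV was not simulated. Shares have Wilson 95% intervals.

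Named genes were all 10 members and, from each of 5 further lists, the gene highest in the inputs, those with the highest and lowest change from input to RIP Eif4a2flag, and every gene past the threshold, plus the 3 transcripts nearest to the members' mean profile. A gene that this rule also names is not reported here. The members and lists were chosen with earlier results of these data known. Alternatives were DESeq2 (version 1.42.0), its size factors in edgeR, library size alone, no filter, 1 fit of all 8 libraries, the replicate number as a block, limma voom (version 3.58.1) with group weights, and leaving out each library.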

Additional observations from a re-analysis of the deposited data

Results flagged for a closer look

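The change from input to RIP differed between Eif4a2flag and EV cells for 1 subunit transcript and 5 companions, by the edgeR quasi-likelihood test of the difference with Benjamini-Hochberg adjustment. Over all transcripts, 2.1% passed this test on the lower side and 19.2% on the higher side, so the 5 of 42 companions on the higher side are not above the general share. Only 51.1% of all transcripts had at least 1 count in both RIP EV libraries. For *Cnot7*, the change was lower in Eif4a2flag than in EV cells (adjusted p = 0.0398), while the change within Eif4a2flag cells did not pass (−0.63, adjusted p = 0.1199 in edgeR) and that within EV cells was not tested. RIP EV held 147 and 195 CPM, against 63.3 and 50.8 CPM in RIP Eif4a2flag. The call was lost in edgeR with library size alone (0.0858), without a filter on low counts (0.318), and with the replicate number as a block (0.0747). It was also lost with limma voom (0.276) and without any one library other than those of RIP EV. Of the 6 fits that leave out such a library, 5 called no transcript at all.

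The 5 companions had 0 to 3 counts over both RIP EV libraries, so that the difference rests on how few of their tags were found there. From input to RIP in Eif4a2flag cells, only *Lsm14b* passed in edgeR (log2 fold change 1.10, adjusted p = 0.0272). *Tob1* (0.77, 0.153) and *Dcp1b* (0.65, 0.461) did not pass in that test. *Tob2* (−0.56, 0.211) and *Nanos1* (−0.58, 0.343) lay below 0, also without passing. *Tob1* lay at 0 counts in each RIP EV library and at 32.2 and 22.9 CPM in RIP Eif4a2flag, at least 50.0-fold higher against a floor of 3 counts over both libraries or 25.0-fold against 3 counts in each (adjusted p of the difference 0.0176 in edgeR). *Tob2* had 21.3 and 19.7 CPM in RIP Eif4a2flag against 0 counts (at least 37.0-fold or 18.5-fold, 0.0176 in edgeR). *Nanos1* had 7.85 and 6.01 CPM against 0 counts (at least 12.6-fold or 6.28-fold, 0.0176 in edgeR), and *Dcp1b* had 3.03 and 6.72 CPM against 0 counts (at least 8.57-fold or 4.28-fold, 0.0323 in edgeR). *Lsm14b* had 174 and 148 CPM against 0 and 3 counts, a pooled ratio of 291 with an exact counting interval of 99.4 to 1411 (0.0176 in edgeR). All 5 lost the call with limma voom (adjusted p up to 0.342) and without either RIP Eif4a2flag library (0.0556 to 0.0595), input EV replicate 1 (0.0506 to 0.0918), or either input Eif4a2flag library (0.0704 to 0.0971). *Dcp1b* also lost it without input EV replicate 2, without a filter on low counts (0.0562 in edgeR), and with the replicate number as a block.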

How the results depend on the processing

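Over all settings tried, the 10 members kept direction and side of the threshold in 84 of 110 fits against RIP EV, 90 of 110 against input Eif4a2flag, 105 of 110 between inputs, and 119 of 140 for the difference between cell lines. The cause of the changes below was not tested.

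Against RIP EV, 0 transcripts and 0 members passed. With a spread shared by all 8 libraries these were 3251 and 3, with DESeq2 1329 and 3, without a filter 29 transcripts, and with limma voom 9. Leaving out 1 library gave 69 to 8349 transcripts and 0 to 7 members. The sign turned for *Cnot9* with library size alone (0.083) and limma voom (0.058). Leaving out 1 library turned *Cnot9* (range −0.68 to 0.75), *Cnot2* (−0.84 to 0.058), *Cnot8* (−0.9998 to 0.090), and *Cnot10* (−0.19 to 1.44).

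Against input Eif4a2flag, 1818 transcripts and 2 members passed, 6 and 0 with all 8 libraries, and 858 to 2422 and 0 to 3 leaving out 1 library. Signs turned for *Cnot11* with library size alone (0.075), and leaving out 1 library for *Cnot3* (−0.26 to 1.18), *Cnot6* (−0.24 to 0.45), *Cnot10* (−0.019 to 0.41), *Cnot4* (−1.06 to 0.20), and *Dcp1b* (−0.087 to 1.14).

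Between inputs, 0 transcripts passed, 17 with DESeq2, 3 with library size alone, 55 without a filter, and 0 to 85 leaving out 1 library. Leaving out 1 library turned *Cnot3* (−1.13 to 0.22), *Cnot9* (−0.45 to 0.053), *Cnot6l* (−0.055 to 0.35), *Cnot7* (−0.067 to 0.024), and *Cnot8* (−0.077 to 0.51).

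For the difference between cell lines, 2294 transcripts and 1 member passed. Limma voom gave 0 and 0, library size alone and no filter gave 0 members, and leaving out 1 library gave 0 to 7143 transcripts and 0 to 4 members. Leaving out 1 library turned *Cnot9* (−0.46 to 0.97) and *Cnot10* (−0.38 to 1.25).

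With the replicate block, 381 transcripts and 0 members passed against RIP EV, where *Cnot9* turned (0.030), 1448 and 2 against input Eif4a2flag, where *Pde12* (0.0609), *Tnrc6a* (0.0759), and *Lsm14a* (0.0512) lost the call in edgeR, 61 and 0 between inputs, and 1738 and 0 for the difference between cell lines, where *Cnot7* (−1.84, adjusted p = 0.0747 in edgeR) and *Dcp1b* (0.0685) lost the call. The labels do not say that the numbers pair the libraries, and same-numbered libraries had deviations correlated at −0.0688 to 0.127.

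With a floor of 3 counts per library, the bounds for *Tob1*, *Tob2*, *Nanos1*, and *Dcp1b* became 25.0, 18.5, 6.28, and 4.28. The shallowest library, RIP EV replicate 1, allows up to 1.47 CPM for a transcript at 0 counts.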
